A study of Mus musculus with 203 samples.

Results

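The 8 genes described here, Retnla, Mrc1, Ccl17, Ccl22, Mgl2, Clec10a, Cd209a and Socs1, are transcripts associated with alternatively activated macrophages and dendritic cells. They were chosen by name among 43346 gene identifiers, by matching Ensembl identifiers to mouse symbols, and all 8 passed the filter on low counts in every fit. RNA was sequenced from the airway and the parenchyma of female Balb/C mice aged 18 to 20 weeks, with 101 libraries of airway and 1 more of parenchyma. At 3 weeks the mice had received intranasal PBS (11 airway and 12 parenchyma libraries) or house dust mite extract (HDM) on 5 days a week (10 and 10). At 11 weeks there were 16 groups of 10 libraries. After the first 3 weeks those mice were given PBS or HDM 3 times a week from week 4 to week 11, with air (AIR) or cigarette smoke (CS), the smoke 2 times a day on 5 days a week for 8 weeks, and with or without dexamethasone (DEX) in the last week. These groups are named PBS.AIR, HDM.AIR, PBS.CS, HDM.CS and the same with .DEX. All mice were wild type, and each library came from tissue separated by blunt dissection, so every value is that of mixed cells. In such bulk samples fewer cells of a type and less RNA per cell cannot be told apart.

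Macrophages that meet IL-4 or IL-13 signal through the IL-4 receptor alpha chain to STAT6 and enter a state called alternative activation, a hallmark of allergic lung inflammation. The genes of this state fall into several roles. Retnla encodes RELM-alpha, a secreted protein of the resistin-like family. Ccl17 and Ccl22 encode chemokines that draw T helper 2 and regulatory T cells through the receptor CCR4. Mrc1, Mgl2, Clec10a and Cd209a encode C-type lectin receptors that bind sugars on microbes and on host glycoproteins. Socs1 encodes a cytokine-induced inhibitor of JAK kinases. In the lung, dendritic cells also make several of these transcripts, Ccl17, Ccl22, Mgl2 and Cd209a among them.

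The members lie on 4 chromosomes of GRCm38 (mm10). Retnla is at chr16:48842551-48844461 and Socs1 at chr16:10782240-10785536. Ccl22 at chr8:94745590-94751699 lies 58754 bases before Ccl17 at chr8:94810453-94812036, and Cd209a is at chr8:3743397-3748984. Mgl2 at chr11:70130329-70137550 lies 18647 bases before Clec10a at chr11:70156197-70170834, a closely related gene, so the split of reads between this pair rests on how the authors' estimation assigned them. Mrc1 is at chr2:14229392-14332057. Promoter sequence was available from RefSeq (GRCm38.p6) for 7 of the 8 members. The promoters of Retnla and Ccl17 are shown because these were the 2 members whose window held the STAT6-type palindrome, TTC and GAA with 4 free bases between them, printed in capitals. Both are on the plus strand and end at the base before the transcript start.
Retnla, chr16:48842359-48842550: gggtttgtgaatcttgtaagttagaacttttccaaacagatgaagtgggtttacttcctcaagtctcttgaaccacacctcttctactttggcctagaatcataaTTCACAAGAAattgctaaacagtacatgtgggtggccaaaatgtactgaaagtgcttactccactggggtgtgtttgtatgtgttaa
Ccl17, chr8:94810203-94810452: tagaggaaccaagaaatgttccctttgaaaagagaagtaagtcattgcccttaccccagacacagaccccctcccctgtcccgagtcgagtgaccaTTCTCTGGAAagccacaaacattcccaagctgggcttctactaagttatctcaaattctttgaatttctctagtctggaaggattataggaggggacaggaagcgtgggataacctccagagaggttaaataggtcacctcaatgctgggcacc
This palindrome, which reads the same on both strands, was found in 6.95% of 32851 RefSeq promoter windows of 300 bases (250 before the start and 50 after it). The shorter form with 3 free bases, TTCNNNGAA, common to other STAT proteins, was in 8.3% of them and among the 7 members only in Ccl17, from 99 to 91 bases before the start. These matches describe letters and not binding.

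Levels are given as CPM (counts relative to the TMM-scaled total of the library), and between genes per kilobase of exon (RPKM). Per length, Retnla was by far the most abundant member, with group medians from 100.4 to 5070 RPKM. Ccl17 ranged from 9.55 to 263 RPKM, Ccl22 from 1.46 to 50.4, Mrc1 from 14.1 to 39.4, Mgl2 from 4.06 to 17.2, Cd209a from 2.15 to 8.83, Socs1 from 0.323 to 6.05 and Clec10a from 0.575 to 4.90 RPKM. The spread of group medians split the members. The highest group median was 50.5 times the lowest for Retnla, 34.6 times for Ccl22, 27.5 times for Ccl17 and 18.8 times for Socs1, against 8.51 for Clec10a, 4.23 for Mgl2, 4.11 for Cd209a and 2.79 for Mrc1. The 3-week HDM groups were the highest 2 of the 20 for Retnla, Ccl17, Ccl22 and Socs1. PBS airway groups headed the order for Mgl2, Clec10a and Cd209a, and HDM.CS parenchyma did for Mrc1. For every member, each of the 19 pairs of neighbours in the order of group medians overlapped.

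Total counts ran from 13003087 to 40240680 per library, with a median of 28090612. The tissue labels were checked against marker sums. In PBS mice at 3 weeks smooth muscle genes summed to a median of 515 CPM in airway and 85.9 in parenchyma and alveolar type I genes to 2462 and 4009. Adipocyte genes summed to 208 CPM in airway and 6.10 in parenchyma. Of 2 libraries that stood apart, X63 (3-week HDM, airway) held Clec10a at 64.2 CPM and an adipocyte sum of 317 CPM, against 15.2 to 324 in the rest of its group, and X32 (HDM.AIR.DEX, parenchyma) had the lowest total count, with 38.3% of its counts on Gm42418 and Lars2 against 0.219 to 0.994% in the rest of its group. Values without them are given where they changed a call.

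After 3 weeks of HDM, Retnla, both chemokine genes and Socs1 rose in both tissues, while no lectin gene was called. A gene was called when its adjusted p (limma-voom, Benjamini-Hochberg) was under 0.05 and its log2 fold change (log2FC) at least 1 or at most -1. By that rule 4 of the 8 members were called in the airway, all of them higher, where 12.1% of 17377 genes were called higher and 11.8% lower. The same 4 were called in the parenchyma, all of them higher, where 14.5% of genes were called higher and 15.1% lower. The median log2FC of the 8 members was 1.27 in airway and 1.66 in parenchyma, beside -0.07 and -0.13 over all genes.

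Retnla in the airway ran from 99.2 to 519 CPM with a median of 202.1 after PBS, and from 1055 to 6879 with a median of 3037 after HDM. In the parenchyma it ran from 56.4 to 517 with a median of 108.1 after PBS, and from 688 to 5253 with a median of 1998 after HDM. All 10 HDM libraries lay above every PBS library in both tissues. The fitted rise was 14.1-fold in airway (log2FC 3.82 ± 0.38 SE, adjusted p = 7.3e-12) and 17.9-fold in parenchyma (4.16 ± 0.35, adjusted p = 4.7e-14).

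**Figure D1:**
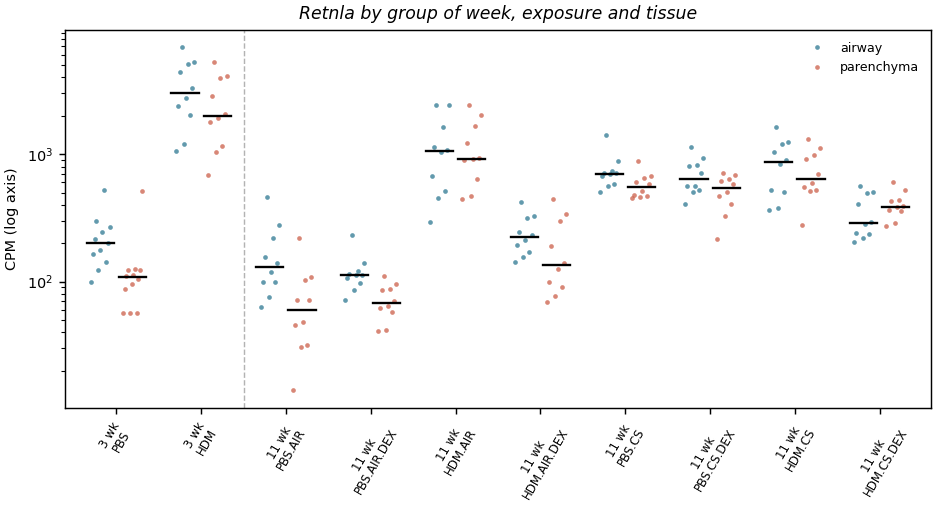
Retnla in every library, as CPM on a log axis, by group of week and exposure; points are libraries (airway and parenchyma side by side) and black lines group medians. The medians of all HDM groups and all smoke groups are above those of the PBS.AIR groups of the same tissue, with overlap of libraries in some of them. The 3-week HDM airway group has the highest median, 3037 CPM.

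Ccl17 had a median of 6.06 CPM in PBS airway (4.26 to 12.0) and 35.9 in HDM airway (16.6 to 162.9). In the parenchyma the medians were 5.39 (3.97 to 6.38) and 135.1 (26.3 to 209). No HDM library overlapped with PBS in either tissue. The rise was 5.80-fold in airway (log2FC 2.54 ± 0.41, adjusted p = 7.1e-07) and 18.5-fold in parenchyma (4.21 ± 0.46, adjusted p = 6.9e-11).

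Ccl22, which shares its receptor with Ccl17, had a median of 9.29 CPM in PBS airway (4.97 to 54.2) and 66.5 in HDM airway (38 to 106.7). Here the groups overlapped, because a PBS airway library reached 54.2 CPM. In the parenchyma the medians were 4.23 (3.32 to 8.13) and 117.3 (65.7 to 165.7), with no overlap. The rise was 5.78-fold in airway (log2FC 2.53 ± 0.27, adjusted p = 6.2e-11) and 22-fold in parenchyma (4.46 ± 0.36, adjusted p = 1e-14).

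Socs1, the feedback inhibitor, was a low transcript at rest, with medians of 3.06 CPM in PBS airway (1.25 to 6.37) and 2.87 in PBS parenchyma (1.04 to 4.05). After HDM the medians were 11.7 (6.46 to 20.8) and 17.6 (10.9 to 25.9), and every HDM library lay above every PBS library. The log2FC was 1.80 ± 0.24 in airway (adjusted p = 1.5e-08) and 2.6 ± 0.26 in parenchyma (adjusted p = 3.9e-12).

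**Figure D2:**
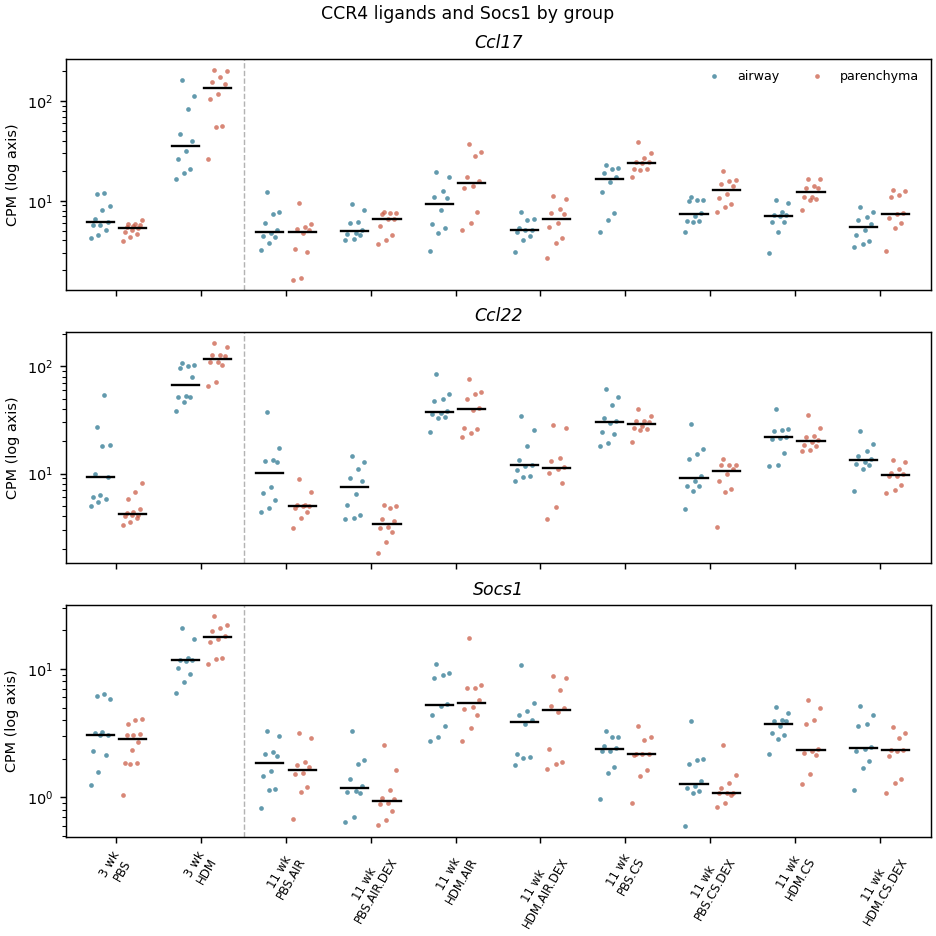
Ccl17, Ccl22 and Socs1 in every library, as CPM on a log axis, by group of week and exposure; points are libraries and black lines group medians. All 3 peak in the 3-week HDM parenchyma group, at medians of 135.1, 117.3 and 17.6 CPM.

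The lectin receptor genes showed smaller differences, none of which reached the limit of size. Mrc1, which encodes the macrophage mannose receptor, had medians of 98.6 CPM (69.2 to 115.3) and 142.2 (87.5 to 296) in PBS and HDM airway, with a log2FC of 0.74 (adjusted p = 0.00014) in airway and 0.72 (adjusted p = 0.00016) in parenchyma. Mgl2 in the airway had a median of 36 CPM after PBS and 26.1 after HDM (log2FC -0.72, adjusted p = 0.0016), and Cd209a had 12.5 and 9.68 (log2FC -0.73, adjusted p = 0.0047). In the parenchyma Mgl2, Clec10a and Cd209a had log2FC of 0.21, 0.36 and -0.45, with adjusted p from 0.13 to 0.39. Clec10a in the airway turned on library X63. Its log2FC was -0.17 (adjusted p = 0.52) with that library and -0.42 (adjusted p = 0.044) without it.

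**Figure D3:**
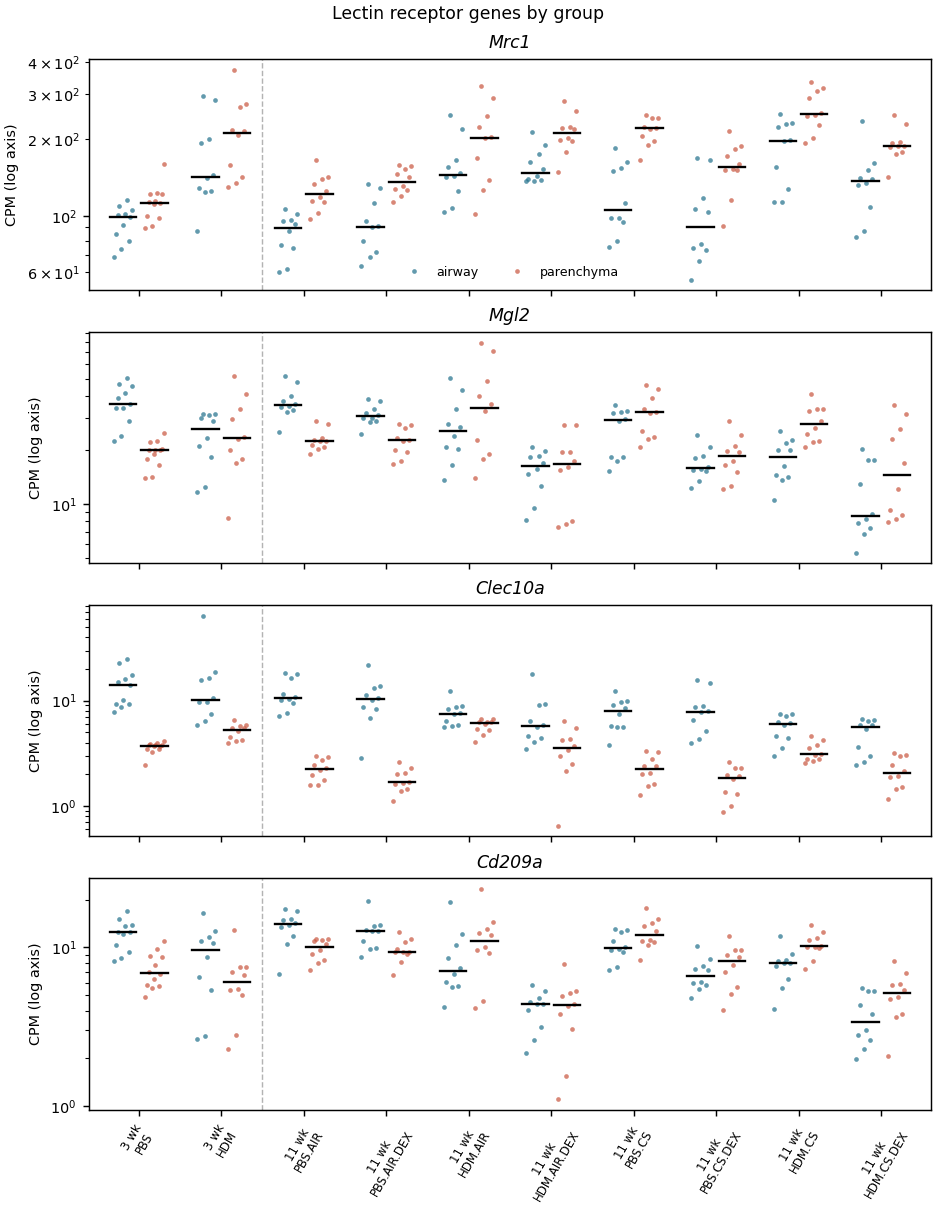
Mrc1, Mgl2, Clec10a and Cd209a in every library, as CPM on a log axis, by group of week and exposure; points are libraries and black lines group medians. Clec10a sits higher in airway than in parenchyma in PBS mice, and the lowest group median of both Mgl2 (8.51 CPM) and Cd209a (3.40 CPM) is that of HDM.CS.DEX airway.

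Macrophage markers, none at 0, moved the same way as the members that rose: 6 of 7 were called higher in each tissue at 3 weeks, and their sum went from a median of 6212 CPM (4092 to 7022) to 11824 (7959 to 22628) in airway and from 7841 (5840 to 10847) to 19402 (16689 to 23584) in parenchyma. Migratory dendritic cell markers were called higher for 4 of 6 in each tissue, with sums going from 102.2 to 541 CPM (medians) in airway and from 116.6 to 832 in parenchyma. In the airway 5 of 6 adipocyte markers were called lower, and their sum went from 208 CPM (83.9 to 527) to 34 (15.2 to 324). The part of these cell types in the members' values was not tested.

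The HDM response differed between tissues for Ccl22, whose log2FC was smaller in airway than in parenchyma by 1.93 (interaction log2FC -1.93 ± 0.45, adjusted p = 0.0033), the 1 member called lower in this comparison, in which 1.66% of genes were called lower and 0.547% higher. An adjusted p under 0.05 alone was met by 6.43% of genes in that direction. Mgl2 followed at -0.93 (adjusted p = 0.027) and Ccl17 at -1.68 (adjusted p = 0.055). Ccl17 was called by edgeR (-1.54, adjusted p = 0.016) and DESeq2 (-1.61, adjusted p = 0.0062), in the fit of all libraries (adjusted p = 0.0023) and with runs of library codes as a term (adjusted p = 0.0086). Mgl2 was called by edgeR (-1.01, adjusted p = 0.011), DESeq2 (-1.08, adjusted p = 0.0026), under the filter of CPM at least 10 (-1.02, adjusted p = 0.014) and without library X63 (-1.05, adjusted p = 0.017). The tissues also differed at rest. In PBS mice 2 members were called higher in airway than in parenchyma (10% of genes called higher and 1.91% lower), Clec10a at 3.57-fold (log2FC 1.84, adjusted p = 6.6e-06) with all airway libraries above all parenchyma libraries, and Ccl22 at 2.37-fold (1.24, adjusted p = 0.0058). In HDM mice, where 8% of genes were called higher and 0.61% lower in airway, Clec10a was called higher (log2FC 1.3, adjusted p = 0.0011) and Ccl17 lower (-1.33, adjusted p = 0.0011). Without library X63 the Clec10a value was 1.02 (adjusted p = 0.0011), close to the limit of size.

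Of the wider pathway at 3 weeks, 7 of 13 IL-4 and IL-13 signalling genes were called in each tissue, all of them higher. Il13 was at 0 to 2 counts in PBS libraries of either tissue and at 8 to 65 in HDM libraries, so that its fitted log2FC of 4.93 in airway and 5.06 in parenchyma depends on the prior count. Il4 had a log2FC of 1.52 in airway (adjusted p = 0.00032) and 0.90 in parenchyma (adjusted p = 0.013), Il4ra, the receptor chain, 0.76 and 0.59, and Stat6 0.43 and 0.53. Of 14 other alternative activation genes 10 rose in airway and 13 in parenchyma. Arg1, the urea cycle enzyme arginase 1, had a log2FC of 5.08 (adjusted p = 7.4e-11) and 6.06 (adjusted p = 3.9e-12), and Chil3, the chitinase-like protein Ym1, 3.83 (adjusted p = 2.3e-10) and 4.21 (adjusted p = 5.5e-11). Among the relatives of Retnla, Retnlg rose (log2FC 2.29 in airway and 1.56 in parenchyma) and Retnlb, at 0 to 9 counts per library after PBS, was at 7 or more after HDM. Retn, an adipocyte gene, fell in airway (-2.51, adjusted p = 1.9e-06). Of 7 relatives of Cd209a and Mrc1, 1 rose in each tissue, Cd209e (3.08 and 3.10), while 4 fell in airway and 5 in parenchyma, Cd209b at -1.95 and -2.0 among them. Ccr4 had a log2FC of 2.1 and 3.02 and Ccr8 2.15 and 3.29. The SOCS relatives had 1 rise of 7 in each tissue, Socs3 (1.86 and 2.19). Genes of interferon gamma and classical activation rose as well, 8 of 9 in each tissue, with Cxcl9 at 5.31 and 7.25 and Nos2 at 5.15 and 6.16.

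HDM continued to 11 weeks still set Retnla, Ccl22 and Socs1 apart from PBS.AIR in both tissues, and Ccl17 and Clec10a in the parenchyma. In the airway 3 members were called, all higher (10.6% of 18250 genes were called higher and 8.54% lower), and in the parenchyma 5 were, all higher (13% and 6.12%). Retnla went from a median of 130 CPM (62.7 to 464) in PBS.AIR airway to 1059 (292 to 2448) in HDM.AIR, with overlapping groups, and from 60.1 (14.0 to 221) to 922 (442 to 2409) in parenchyma, with none. The log2FC was 2.74 ± 0.32 (adjusted p = 9.5e-14) and 4.16 ± 0.31 (adjusted p = 2.9e-25).

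Ccl22 had medians of 10.1 CPM (4.39 to 37.2) and 37.3 (24.2 to 85.5) in PBS.AIR and HDM.AIR airway, and 4.99 (3.13 to 8.92) and 39.9 (21.8 to 75.6) in parenchyma. The parenchyma groups did not overlap. It rose 4.29-fold (log2FC 2.1, adjusted p = 7.6e-13) and 7.82-fold (2.97, adjusted p = 1.1e-15). Socs1 rose 3.18-fold in airway (1.67, adjusted p = 1.3e-07) and 3.66-fold in parenchyma (1.87, adjusted p = 1.7e-08). Ccl17 rose in parenchyma (1.91, adjusted p = 9.9e-09), from a median of 4.91 to 15.0 CPM. In the airway its log2FC was 0.65 (adjusted p = 0.043), short of a call.

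Among the lectin genes Clec10a had the largest tissue difference in the HDM response at 11 weeks. In PBS.AIR it had a median of 10.6 CPM (7.18 to 18.4) in airway and 2.25 (1.58 to 2.95) in parenchyma, without overlap (log2FC 2.37 airway less parenchyma, adjusted p = 1.8e-14). In HDM.AIR it was at 7.52 (5.67 to 12.3) and 6.13 (4.09 to 6.76). The HDM log2FC was -0.57 in airway (adjusted p = 0.0076) and 1.41 in parenchyma (adjusted p = 5.7e-06), where all HDM.AIR libraries lay above all PBS.AIR libraries. The difference between tissues was -1.98 ± 0.34 (adjusted p = 3.6e-06). Retnla (-1.42, adjusted p = 0.011), Ccl17 (-1.26, adjusted p = 0.016) and Mgl2 (-1.07, adjusted p = 0.0029) were called lower in that comparison as well, 4 of 8 members against 7.46% of genes lower and 0.504% higher. Of these, 3 calls ended under an alternative, Retnla with quality weights (-0.86, adjusted p = 0.14), Mgl2 with quality weights (-1.0, by size) and Ccl17 in the fit of all libraries (-1.22, adjusted p = 0.059). Mgl2 had an HDM log2FC of -0.50 in airway (adjusted p = 0.024) and 0.56 in parenchyma (adjusted p = 0.014). Mrc1, not called with HDM in either tissue, had medians of 89.7 CPM in PBS.AIR and 144.9 in HDM.AIR airway. In parenchyma its medians were 122.1 and 202.5. Cd209a had a tissue difference of -0.84 (adjusted p = 0.0096), with an HDM log2FC of -0.73 in airway (adjusted p = 0.00025) and 0.11 in parenchyma (adjusted p = 0.63), and 14.9% of genes had an adjusted p under 0.05 in the lower direction. Between PBS.AIR tissues 13.4% of genes were called higher in airway and 2.71% lower, among them Retnla besides Clec10a (1.34, adjusted p = 1.1e-05). Adipocyte markers again summed lower in HDM.AIR airway (64.6 CPM, 4.6 to 117.05) than in PBS.AIR airway (262, 155.9 to 891), 5 of 6 called lower. Their part in these values was not tested.

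Of the pathway lists at 11 weeks, IL-4 and IL-13 signalling had 5 of 13 genes higher in each tissue. Il13 was at 0 to 5 counts in PBS.AIR libraries and 1 to 31 in HDM.AIR, Il4 had a log2FC of 0.55 and 0.39 (adjusted p = 0.13 and 0.3), Il4ra 0.43 and -0.02, and Stat6 0.28 and 0.11. Other alternative activation genes had 8 higher and 2 lower of 14 in airway and 9 and 1 in parenchyma. Arg1 rose by 3.06 and 3.64 (log2FC), Chil3 by 3.21 and 2.56 and Msr1, a scavenger receptor, by 3.65 in parenchyma. Ccr4 rose by 1.32 and 1.88. The CD209 relatives had 1 higher and 4 lower in airway, with Cd209f at -4.09 and Cd209g at -3.94, and 2 and 2 in parenchyma, with Cd209e at 3.22 and Cd209g at -3.16. Macrophage markers were called higher for 5 of 7 in each tissue.

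The HDM response was compared between 11 and 3 weeks in a fit of all libraries (18528 genes). In airway 3.04% of genes were called higher and 3.03% lower, and of the members Ccl17 was lower by a log2FC of 1.94 (that is -1.94 ± 0.46, adjusted p = 0.00047). In parenchyma, where 6.14% of genes were called higher and 4.06% lower, Ccl17 (-2.42 ± 0.49, adjusted p = 1.5e-05) and Ccl22 (-1.62 ± 0.46, adjusted p = 0.0025) were. An adjusted p under 0.05 alone, in the lower direction, was met by 13.9% of genes in airway and 20.9% in parenchyma. Both chemokine genes thus responded less to HDM at 11 weeks than at 3 weeks in parenchyma. HDM was given on 5 days a week in the first 3 weeks and 3 times a week from week 4. Duration and frequency of HDM cannot be told apart in this comparison. Retnla differed by -1.13 (adjusted p = 0.065) in airway and -0.12 (95% interval -1.03 to 0.79, adjusted p = 0.86) in parenchyma. Without library X63 the airway value was -1.27 (adjusted p = 0.041), which passed.

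Smoke alone raised Retnla, Ccl17 and Ccl22 in both tissues. In airway 3 members were called, all higher, where 1.73% of genes were called higher and 1.06% lower. In parenchyma the same 3 were, where 4.21% were called higher and 1.12% lower. These comparisons share the PBS.AIR libraries with the HDM comparisons at 11 weeks.

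Retnla in PBS.CS had a median of 702 CPM (501 to 1410) in airway and 550 (452 to 892) in parenchyma. Every smoke library lay above every PBS.AIR library of its tissue. The rise was 4.99-fold (log2FC 2.32 ± 0.31, adjusted p = 1.8e-09) and 9.93-fold (3.31 ± 0.30, adjusted p = 1.1e-18). Its spread within the smoke groups was small, with an SD of log2 CPM of 0.41 and 0.31, beside 1.03 and 0.84 in HDM.AIR.

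Ccl17 in PBS.CS was at 16.5 CPM (4.84 to 23) in airway and 24.3 (17.2 to 38.9) in parenchyma, with log2FC of 1.28 (adjusted p = 0.00019) and 2.61 (adjusted p = 8.9e-14). Ccl22 was at 30.2 (18.2 to 61.4) and 29.2 (19.9 to 39.6), with log2FC of 1.67 (adjusted p = 1.4e-07) and 2.52 (adjusted p = 3.1e-11). Both were free of overlap in parenchyma and overlapped in airway. For Ccl17 the PBS.CS medians were above those of HDM.AIR, 9.37 CPM in airway and 15.0 in parenchyma.

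Socs1, which HDM raised, showed no called smoke response, with a log2FC of 0.31 (95% interval -0.32 to 0.94, adjusted p = 0.61) in airway and 0.39 (-0.28 to 1.06, adjusted p = 0.4) in parenchyma. Mrc1 was at 0.47 (adjusted p = 0.028) and 0.80 (adjusted p = 2.5e-05). Mgl2 and Clec10a in airway were at -0.56 (adjusted p = 0.044) and -0.62 (adjusted p = 0.016). Of macrophage markers 1 of 7 was called higher in airway and 2 of 7 in parenchyma, with sums going from a median of 4552 (3918 to 7978) CPM to 9174 (6917 to 10211) and from 7500 (6049 to 10173) to 12660 (10253 to 20242), and their part in the members' values was not tested.

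With smoke 1 of 13 IL-4 and IL-13 signalling genes was called lower in airway and 1 higher in parenchyma. Of 14 other alternative activation genes 3 were called higher and 1 lower in airway, and 5 higher in parenchyma. Il4 fell in airway (log2FC -1.26, adjusted p = 0.013, at 1 to 8 counts per PBS.CS library), Il13 stayed at 0 to 3 counts, and Il4ra and Stat6 had log2FC of 0.26 and 0.07 in airway and 0.03 and 0.07 in parenchyma. Arg1, which rose with HDM, was at -0.33 (adjusted p = 0.84) and -1.14 (adjusted p = 0.28). Chil3 rose (1.31, adjusted p = 0.00044, and 1.73, adjusted p = 6.5e-06), as did Msr1 (1.97 and 2.89) and Il1rn, the IL-1 receptor antagonist (1.79 and 2.18). Retnlb, at 0 to 2 counts in PBS.AIR, was at 0 to 21 counts in PBS.CS. Ccr4 was at 0.69 and 0.68 and Retnlg at 0.95 and 0.70, short of a call. The 9 interferon gamma genes had a median log2FC of -0.14 in airway and -0.19 in parenchyma.

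The HDM response of Retnla, Ccl17 and Ccl22 in both tissues, and of Socs1 in parenchyma, was lower in smoke-exposed than in air-exposed mice. In HDM.CS, Retnla had a median of 869 CPM (363 to 1640) in airway and 644 (277 to 1316) in parenchyma, overlapping with each single exposure. The interaction of HDM and smoke was negative for 3 members in airway, where 3.5% of genes were called lower and 1.67% higher, and for 4 in parenchyma, where 7.11% were called lower and 3.43% higher. It was -2.65 ± 0.47 (adjusted p = 7.7e-06) and -3.87 ± 0.46 (adjusted p = 2.5e-12) for Retnla, -1.63 (adjusted p = 0.00097) and -2.89 (adjusted p = 6.8e-11) for Ccl17, and -2.69 (adjusted p = 5.7e-10) and -3.40 (adjusted p = 7e-13) for Ccl22. Socs1 was called in parenchyma (-1.46, adjusted p = 0.0039) and not in airway (-0.99, adjusted p = 0.067). The lectin genes had interaction values from -0.82 to 0.31, none with an adjusted p under 0.05, a limit that 11.4% of genes met in the lower direction in airway and 18.7% in parenchyma. Without library X32, Mgl2 in parenchyma was at -0.70 (adjusted p = 0.049), short of a call by size.

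Set against smoke alone, HDM on top of smoke left Retnla at a log2FC of 0.09 (95% interval -0.58 to 0.77) in airway and 0.29 (-0.36 to 0.95) in parenchyma, and limma-voom called 0 members in either tissue, where 3.9% and 2.71% of genes were called higher and 2.5% and 0.225% lower. At an unadjusted p under 0.05 there were 7 members in airway and 1 in parenchyma, edgeR called 1 and 0, and DESeq2 1 and 1, in each case Ccl17, lower. Ccl17 came nearest, at -0.98 in both tissues (adjusted p = 0.0014 and 0.00047). In parenchyma all 10 HDM.CS libraries (8.06 to 16.6 CPM) lay below all PBS.CS libraries (17.2 to 38.9). Mrc1 in airway had a median of 105.4 CPM in PBS.CS and 197.4 in HDM.CS, and Socs1 2.36 and 3.74. The airway medians of Ccl17, Ccl22, Mgl2, Clec10a and Cd209a were lower in HDM.CS than in PBS.CS. Set against HDM alone, smoke on top of HDM lowered Ccl22 in airway (-1.02, adjusted p = 0.00024, with 1.97% of genes lower and 0.674% higher) and Socs1 in parenchyma (-1.08, adjusted p = 0.00084, with 3.46% lower and 0.899% higher). Ccl22 in parenchyma was at -0.88 (adjusted p = 0.0014) and Retnla at -0.33 and -0.56 (adjusted p = 0.58 and 0.25). Among the pathway lists the interaction was negative for Retnlb (-3.14 in airway, -2.69 in parenchyma), Il1rn (-2.05 and -2.91), Msr1 (-1.99 and -3.15) and Ccr4 (-1.09 and -1.28), and for Arg1 it was -0.09 and -0.52 (adjusted p = 0.95 and 0.69).

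DEX alone, in PBS.AIR mice, called 0 of 8 members by limma-voom in either tissue, and edgeR, DESeq2 and an unadjusted p under 0.05 gave 0 as well, where 0.559% and 1.02% of genes were called higher and 1.85% and 2.14% lower. The log2FC of Retnla was -0.31 (95% interval -0.86 to 0.25) in airway and 0.27 (-0.26 to 0.80) in parenchyma. That of Ccl22 was -0.47 (-1.08 to 0.14) and -0.54 (-1.37 to 0.28).

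In HDM.AIR mice DEX lowered Retnla and Ccl22 in both tissues and, in parenchyma, Ccl17, Mgl2 and Cd209a as well. This was 2 of 8 members in airway, where 5.07% of genes were called lower and 0.789% higher, and 5 of 8 in parenchyma, where 5.4% were called lower and 0.619% higher. Retnla in HDM.AIR.DEX had a median of 223 CPM (142.6 to 425) in airway and 133.9 (69.6 to 448) in parenchyma, beside 1059 and 922 without DEX. The groups overlapped in both tissues. It fell 4.16-fold (log2FC -2.06 ± 0.32, adjusted p = 7.5e-08) and 6.47-fold (-2.69 ± 0.32, adjusted p = 4.4e-12). The comparison shares the HDM.AIR libraries with that of HDM and PBS.AIR.

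Ccl22 had a median of 12.0 CPM (8.49 to 34.3) and 11.3 (3.78 to 28.3) in HDM.AIR.DEX and fell by a log2FC of 1.59 in airway (adjusted p = 1.7e-08) and of 1.82 in parenchyma (adjusted p = 5.3e-09). Ccl17 fell in parenchyma (-1.24, adjusted p = 0.00015) and was at -0.72 (adjusted p = 0.056) in airway. Mgl2 fell in parenchyma (-1.05, adjusted p = 8.8e-05), from a median of 34.5 to 16.6 CPM, and was at -0.79 (adjusted p = 0.0034) in airway. Cd209a, a member of the DC-SIGN family, fell in parenchyma (-1.36, adjusted p = 8.4e-07), from 11.0 to 4.36 CPM, and was at -0.99 (adjusted p = 0.00031) in airway. Socs1 was at -0.66 (adjusted p = 0.032) and -0.58 (adjusted p = 0.068), and Mrc1 at 0.06 (95% interval -0.26 to 0.38) and 0.13 (-0.19 to 0.46).

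Of 7 macrophage markers, limma-voom, edgeR and DESeq2 called 0 with DEX in HDM.AIR mice in either tissue, and 6 in airway and 3 in parenchyma had an unadjusted p under 0.05. The macrophage sum was 14990 CPM (median) in HDM.AIR and 17257 in HDM.AIR.DEX airway, and 17872 and 19888 in parenchyma. Conventional dendritic cell markers were called lower for 4 of 8 in each tissue, with sums of 778 CPM (569 to 926) without and 635 (517 to 835) with DEX in airway, and 985 (704 to 1362) and 665 (607 to 937) in parenchyma. Migratory dendritic cell markers were called lower for 3 of 6 and 4 of 6, and monocyte markers for 2 of 4 and 3 of 4. Their part in the members' values was not tested.

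In smoke-exposed mice DEX lowered Ccl22, while Retnla was not called. Retnla in PBS.CS.DEX was at 636 CPM (403 to 1148) in airway and 542 (215 to 714) in parenchyma, with log2FC of -0.09 (95% interval -0.76 to 0.58, adjusted p = 0.91) and -0.20 (-0.84 to 0.44, adjusted p = 0.73) against PBS.CS. Ccl22 fell to 9.08 CPM (4.67 to 29.2) and 10.5 (3.15 to 13.6), with log2FC of -1.53 (adjusted p = 2.3e-06) and -1.64 (adjusted p = 1.1e-06), the 1 member called lower in each tissue, where 2.29% and 2.39% of genes were called lower and 0.181% and 0.356% higher. In parenchyma every PBS.CS.DEX library lay below every PBS.CS library for Ccl22. Ccl17 was at -0.74 (adjusted p = 0.037) and -0.96 (adjusted p = 0.00048).

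The DEX effect on Retnla was set directly between HDM and smoke mice, in a comparison added after the values were seen. It was lower in HDM than in smoke mice by -1.97 ± 0.47 in airway (adjusted p = 0.0039, 0.904% of genes lower and 0.285% higher) and -2.49 ± 0.45 in parenchyma (adjusted p = 4.6e-05, 1.33% lower and 0.471% higher), and no other member passed. An adjusted p under 0.05 alone, in the lower direction, was met by 2.56% and 4.13% of genes. For Ccl22 that difference was -0.07 (95% interval -0.75 to 0.62) and -0.18 (-0.92 to 0.56).

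With HDM and smoke together, DEX lowered Retnla in airway (-1.25, adjusted p = 0.0047), Ccl22 in parenchyma (-1.14, adjusted p = 0.0022) and Cd209a in both (-1.11, adjusted p = 0.00021, and -1.11, adjusted p = 8e-05). These were 2 members in each tissue, where 1.93% and 1.92% of genes were called lower and 0.104% and 0.115% higher. Retnla in parenchyma was at -0.81 (95% interval -1.45 to -0.17, adjusted p = 0.12), with medians of 386 CPM (274 to 603) with and 644 without DEX. Against the DEX effect in HDM.AIR mice this was weaker by 1.89 ± 0.45 in parenchyma (adjusted p = 0.0041, 1.23% of genes called higher, 3.58% at an adjusted p under 0.05 alone, and 0.334% called lower), and in airway the difference was 0.80 (-0.10 to 1.71, adjusted p = 0.52, with 0.104% of genes higher and 0.011% lower). In that airway comparison limma-voom, edgeR and DESeq2 called 0 members, and 2 had an unadjusted p under 0.05.

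**Figure D4:**
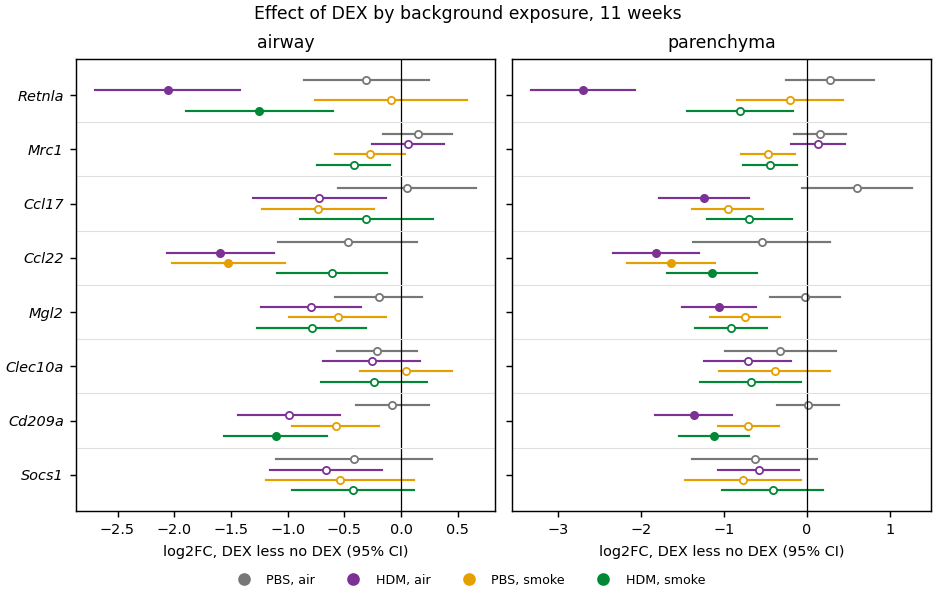
Effect of DEX on each member at 11 weeks as log2FC with its 95% confidence interval, by background exposure, in airway (left) and parenchyma (right); filled points were called. Retnla is lowest in HDM mice kept in air, at -2.06 and -2.69, and near 0 in smoke mice, at -0.09 and -0.20.

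Under DEX the members called with HDM were not the same as those called without it. Whether a response itself changed is read from the interaction of HDM and DEX below. Between HDM.AIR.DEX and PBS.AIR.DEX, Socs1 was called higher in airway (log2FC 1.42, adjusted p = 6.7e-05) while Cd209a (-1.64, adjusted p = 3.4e-11) and Mgl2 (-1.09, adjusted p = 8.3e-06) were called lower with no overlap, where 7.95% of genes were called higher and 6.24% lower. Retnla was at 0.99 (adjusted p = 0.0021), and 1.01 (adjusted p = 0.0017), a call, without library X32. In parenchyma (8.54% higher, 2.18% lower) Socs1 (1.92, adjusted p = 1.1e-06), Ccl22 (1.69, adjusted p = 8e-05), Retnla (1.2, adjusted p = 0.00013) and Clec10a (1.02, adjusted p = 0.0066) were called higher and Cd209a lower (-1.26, adjusted p = 2.3e-06). The interaction of HDM and DEX was negative for Retnla in airway (-1.75 ± 0.43, adjusted p = 0.0046, with 1.1% of genes lower and 0.164% higher). In parenchyma (1.56% lower, 0.553% higher) it was negative for Retnla (-2.97 ± 0.42, adjusted p = 1.5e-07), Ccl17 (-1.84, adjusted p = 0.002), Cd209a (-1.37, adjusted p = 0.0008) and Mgl2 (-1.03, adjusted p = 0.017). The Mgl2 call was lost by size without library X32 (-0.98, adjusted p = 0.025), under the filter of CPM at least 10 (-0.998, adjusted p = 0.018) and in the fit of all libraries (-0.997, adjusted p = 0.021). Ccl22 was at -1.27 (adjusted p = 0.069), and it was called by edgeR (-1.12, adjusted p = 0.039), by DESeq2 (-1.12, adjusted p = 0.027), with quality weights (adjusted p = 0.039), in parenchyma libraries alone (adjusted p = 0.027) and with runs of library codes as a term (adjusted p = 0.04). Cd209a in airway was at -0.91 (adjusted p = 0.038), and of the members only Retnla and Cd209a passed an adjusted p of 0.05 there. Mgl2, called lower under DEX in airway, had an airway interaction of -0.59 (adjusted p = 0.28) in the fit without library X32. Ccl22 in airway was at -1.12, short of a call, and was called with quality weights (-1.38, adjusted p = 0.015). An adjusted p under 0.05 alone, in the lower direction, was met by 3.52% of genes in airway and 6.38% in parenchyma. For Socs1 the interaction was -0.25 (95% interval -1.09 to 0.60) in airway and 0.05 (-0.85 to 0.95) in parenchyma.

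Of the pathway lists, DEX in HDM.AIR mice called 1 of 13 IL-4 and IL-13 signalling genes lower in airway, Il4 (-1.43, adjusted p = 0.00077), and 3 in parenchyma, with Il13 at -2.14 (adjusted p = 0.00019) and Il4 at -1.57 (adjusted p = 0.00044). Il13 in airway was at -0.94 (adjusted p = 0.096), and Il4ra and Stat6 were between -0.04 and 0.14. Arg1 fell by a log2FC of 1.96 in airway and of 2.70 in parenchyma, and Chil3 was at 0.27 and 0.28 (adjusted p = 0.63 and 0.64). Retnlb fell (-2.19 and -3.25), as did Irf4, a transcription factor of alternative activation (-1.51 and -1.38), and Cd209e (-1.95 and -2.52). Ccr4 fell in parenchyma (-1.09) and was at -0.62 in airway, and Retnlg was at -0.24 and 0.03. Interferon gamma genes had 5 and 6 of 9 lower, Cxcl9 by 2.23 and 2.59 (log2FC -2.23 and -2.59).

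Within groups the members were compared library by library, as deviations of log2 CPM from the group mean, with permutation tests within groups and adjustment over 56 relations (28 pairs in each tissue). In airway 13 pairs were positively and 3 negatively related at an adjusted p under 0.05, in parenchyma 14 and 1. These points share library depth and tissue composition. Mgl2 and Cd209a had an r of 0.60 (rho 0.58) in airway and 0.59 (rho 0.47) in parenchyma, each with p = 1e-05, the smallest that 100000 permutations can give, and an adjusted p of 7e-05. Leaving out the 2 farthest libraries gave 0.56 and 0.52. Retnla went with Ccl17, at 0.58 (rho 0.55, p = 1e-05, adjusted p = 7e-05, and 0.60 without the 2 farthest) in airway and 0.49 (rho 0.42, p = 2e-05, adjusted p = 0.00012, and 0.48) in parenchyma. Ccl17 and Ccl22 were at 0.37 (rho 0.37, p = 3e-05, adjusted p = 0.00017, and 0.36) in airway and 0.54 (rho 0.51, p = 1e-05, adjusted p = 7e-05, and 0.51) in parenchyma.

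Mrc1 had relations of both signs. With Cd209a in parenchyma its r was 0.60, the highest of any pair in that tissue. Over the means of the 20 groups, a separate measure, Mrc1 and Cd209a had an r of -0.32. Mrc1 was negatively related to Socs1 in parenchyma (r -0.35, rho -0.41, p = 0.00039, adjusted p = 0.0016, and -0.37 without the 2 farthest libraries) and to Clec10a in airway (r -0.37, rho -0.40, p = 0.00049, adjusted p = 0.0018, and -0.39). In 3-week libraries alone no negative relation had an adjusted p under 0.05 in either tissue. Retnla and Socs1, which both rose with HDM, had an r of 0.01 in airway and 0.04 in parenchyma, with p = 0.9 and 0.72 by permutation.

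**Figure D5:**
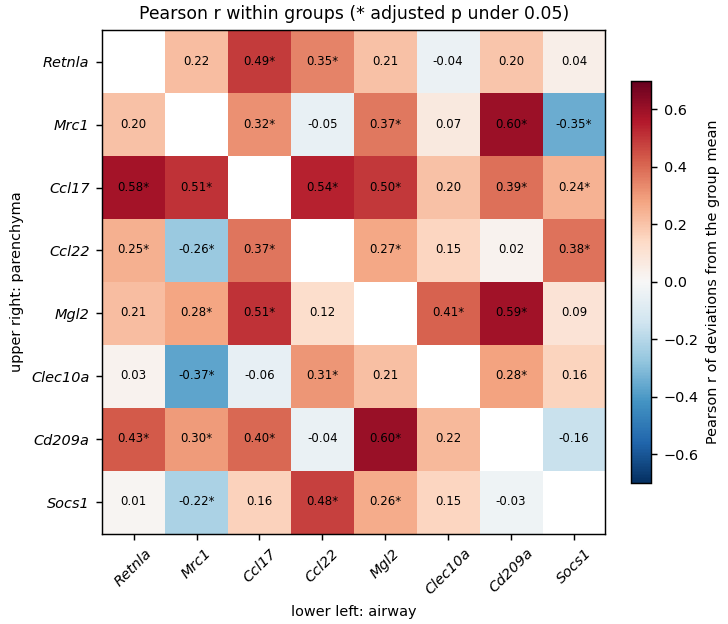
Pearson r between members over libraries, from deviations of log2 CPM from the group mean, with airway below and parenchyma above the diagonal; asterisks mark an adjusted p under 0.05. The darkest cells are Mgl2 with Cd209a in both tissues (0.60 and 0.59) and Mrc1 with Cd209a in parenchyma (0.60).

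Over the means of the 20 groups, the protein-coding genes most like each member were found among 15840 genes, as a description of which the points share libraries and tissue. For Retnla they were Sectm1a (r 0.97), Slx4ip (0.94) and its relative Retnlb (0.93). For Ccl22 they were Il4i1 (0.97), Tm4sf5 (0.97) and Vcam1 (0.96), and for Ccl17 Sod2 (0.94), Ocstamp (0.91) and Eif2ak2 (0.89). Socs1 was nearest to Ltb (0.98), Batf3 (0.98) and Trex1 (0.97), and Mrc1 to Myo7a, Blvra and F7 (0.96 each). Mgl2 and Cd209a were near each other (0.90). Mgl2 was next nearest to Ffar4 and Cst6 (0.72 each), and Cd209a was nearest to Cd209c (0.90) with Zfp300 (0.80) after Mgl2. Clec10a was nearest to Gramd3 (0.97), Hebp2 (0.97) and Penk (0.96).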

How the data were processed

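RNA of airway and parenchyma was read from 1 table of expected counts, the estimated counts per gene that the authors deposited, unnormalised, for 43346 identifiers. The authors used bcl2fastq 2.20.0.422, aligned reads to mm10 with STAR 2.5.1b and quantified genes with RSEM 1.2.31 and kallisto 0.44.0. Which of the last 2 made the deposited table was not given in the sources used here. They were rounded, since 20.3% of those above 0 had decimals. GENCODE M21, the annotation the authors state, named 42462 identifiers. Estimated counts share reads among similar genes, so near-identical family members are less certain.

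Groups were taken from the labels. limma-voom (limma 3.58.1, edgeR 4.0.16, R 4.3.3) with TMM scaling and a mean per group was fitted to 3-week (17377 genes), 11-week (18250) and all libraries (18528), keeping genes that reached, in 9 or more libraries, the CPM that 10 counts make in a library of median depth, with Benjamini-Hochberg adjustment over all genes. The labels do not say which libraries share a mouse, and p-values measure the spread between libraries. All libraries were treated as independent, those of airway and parenchyma included. On simulated counts, 99.5% of 200 changed genes were called in the 3-week airway HDM comparison (17377 genes), with 0 false calls. The share was 98.5% with 2 false calls in the 11-week one (18250) and 96% with 3 in the comparison of weeks (18528). Whether the members, at their own counts and spread, would be called as often was not tested. No library pair looked like 1 library deposited again (lowest chi-square per degree of freedom 8.49). Correlations used SciPy 1.17.1 and NumPy 2.4.6 with 100000 permutations.

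Alternatives were edgeR quasi-likelihood, DESeq2 1.42.0, its size factors, other filters, quality weights, other sets of libraries and runs of 20 library codes as a term. Named were all 8 members, up to 2 called genes of a pathway list with the largest change, and Il4, Il13, Il4ra, Stat6, Arg1, Chil3, Ccr4, Retnlb and Retnlg always. The members and lists were chosen with earlier results of these data known.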

Additional observations from a re-analysis of the deposited data

Results flagged for a closer look

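Each of the 8 members was tested in 18 groups for a single library far from the rest, which chance gives in about 1 of 20 such tests (7.2 here), and 4 were found. Clec10a was high in X63 (3-week HDM, airway), at 64.2 CPM, and low in X32 (HDM.AIR.DEX, parenchyma), at 0.643 CPM, the library with 38.3% of its counts on Gm42418 and Lars2. Ccl22 was low in X176 (PBS.CS.DEX, parenchyma), at 3.15 CPM, and Socs1 high in X76 of the same group, at 2.54 CPM.

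Of 96 tests of whether a response differed between tissues, weeks or backgrounds, 26 had an adjusted p under 0.05 (limma-voom), 25 of them negative. The sign follows the order in which the responses were subtracted, and the comparisons share libraries, so the count of negative values is no result of its own. The shares of all genes are given with each comparison in the text above. Where given for an adjusted p under 0.05 in the lower direction, they ran from 2.56% to 20.9%. The log2FC with HDM at 3 weeks was lower in airway than in parenchyma for Ccl22 (-1.93) and for Mgl2 (-0.93), which was at -0.72 in airway and 0.21 in parenchyma. At 11 weeks it was lower in airway for Retnla (-1.42), Ccl17 (-1.26), Mgl2 (-1.07), Clec10a (-1.98) and Cd209a (-0.84). Of these, Mgl2, Clec10a and Cd209a had a negative log2FC in airway and a positive one in parenchyma. The parenchyma value of Cd209a did not pass an adjusted p of 0.05.

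The HDM response was lower under smoke than in air for Retnla (-2.65 in airway and -3.87 in parenchyma), Ccl17 (-1.63 and -2.89), Ccl22 (-2.69 and -3.40) and, in parenchyma, Socs1 (-1.46). Under DEX it was lower than without for Retnla (-1.75 and -2.97), Cd209a (-0.91 and -1.37) and, in parenchyma, Ccl17 (-1.84) and Mgl2 (-1.03). At 11 weeks it was lower than at 3 weeks for Ccl17 (-1.94 in airway, -2.42 in parenchyma) and, in parenchyma, Ccl22 (-1.62). The DEX effect on Retnla was lower in HDM than in smoke mice (-1.97 in airway, -2.49 in parenchyma) and, in parenchyma, higher in HDM and smoke than in HDM mice (1.89), in comparisons chosen after seeing the data.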

How the results depend on the processing

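Of 280 member results over 35 comparisons, 74 were called, 66 of these kept their call under every alternative run for them, 8 lost it under at least 1 and 0 changed sign. Those 8 were Ccl22 between PBS tissues at 3 weeks (0.93 with quality weights) and in smoke added to HDM in airway (-0.95, quality weights), Cd209a with DEX in HDM and smoke airway (-0.99, quality weights), Clec10a under DEX in parenchyma (0.98 with all libraries, and 1.05, adjusted p = 0.063, with the CPM filter), Mgl2 in the HDM by DEX interaction in parenchyma (-0.98 without library X32, -0.998 with the CPM filter and -0.997 with all libraries), and, in the tissue difference at 11 weeks, Retnla (-0.86) and Mgl2 (-1.0 with quality weights) and Ccl17 (-1.22 with all libraries, adjusted p = 0.059). Of the 206 others, 14 were called under some alternative and 24 changed sign, none above 0.34 in size. The CPM filter is that of CPM at least 10 in at least 9 libraries, which left Socs1 untested at 11 weeks, and code runs are runs of 20 library codes as a term. The fits without X63 or X32, and the comparisons of DEX effects between HDM, smoke and combined mice, were chosen after seeing the data. No paired analysis was made because the groups share no replicate numbers and the labels do not say which libraries come from 1 mouse, consecutive codes included. Comparisons between tissues thus leave out any dependence between libraries of 1 mouse. How far it would change their p-values was not tested. Depth limits Socs1 and Clec10a most, whose lowest group medians were 0.938 and 1.67 CPM. The cause of each change was not tested.

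Counts of members moved as follows. With edgeR and DESeq2 the tissue difference at 3 weeks had 3 lower instead of 1, and 2 with the CPM filter, all libraries, code runs or without X63. HDM under smoke had 1 lower instead of 0 in airway (edgeR, DESeq2, its size factors, quality weights) and in parenchyma (DESeq2, CPM filter, all libraries). HDM under DEX in airway had 2 higher instead of 1 (edgeR, no filter, all libraries, without X32) or 0 (CPM filter), and in parenchyma 2 instead of 4 (CPM filter). HDM at 11 less 3 weeks in airway had 2 lower instead of 1 (edgeR, DESeq2, without X63), and in parenchyma 1 higher instead of 0 (code runs). Quality weights gave 1 instead of 2 between PBS tissues at 3 weeks, 1 instead of 2 for DEX with HDM and smoke, 3 instead of 1 for HDM by DEX and 0 instead of 1 for smoke added to HDM (all airway), and 2 instead of 4 for the tissue difference at 11 weeks. The CPM filter gave 0 instead of 1 for smoke added to HDM in parenchyma. Positive relations within groups went from 13 to 8 in airway (11-week libraries) and from 14 to 8 in parenchyma (either week), and negative ones from 3 and 1 to 0 at 3 weeks.

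The sign of log2FC changed as follows. At 3 weeks Clec10a with HDM in airway went from -0.17 to 0.16 (edgeR) and 0.18 (DESeq2), and in the tissue difference Retnla from -0.34 to 0.039 (quality weights) and Mrc1 from 0.022 to -0.022 (DESeq2), -0.038 (size factors), -0.044 (no filter), -0.071 (CPM filter), -0.0072 (all libraries) and -0.0058 (without X63). With DEX alone it changed for Ccl17 (airway) to -0.027 (edgeR) and -0.043 (DESeq2), Clec10a (airway) to 0.082 (quality weights), Retnla (parenchyma) to -0.038 (edgeR) and -0.045 (DESeq2) and Cd209a (parenchyma) to -0.0024 (DESeq2) and -0.0039 (1 tissue only). For HDM by DEX it did for Mrc1 to 0.014 (airway, quality weights), 0.0053 (parenchyma, all libraries) and 0.0023 (without X32) and Clec10a to 0.015 (airway, DESeq2). With smoke in parenchyma it did for Clec10a to 0.018 (edgeR), 0.0078 (DESeq2), 0.0042 (no filter) and 0.071 (quality weights), for smoke added to HDM for Cd209a to -0.12 (edgeR and DESeq2) and -0.071 (quality weights), and for DEX in smoke mice for Retnla to 0.0025 (quality weights). At 11 less 3 weeks in airway it did for Mrc1 to -0.016 (DESeq2) and -0.052 (quality weights), Cd209a to 0.044 (quality weights) and 0.018 (without X63) and Socs1 to 0.078 (code runs). For the DEX effect in HDM less smoke airway it did for Ccl17 to -0.020 (edgeR), -0.0057 (DESeq2) and -0.011 (code runs), Ccl22 to 0.23 and Socs1 to 0.21 (quality weights). For that in HDM and smoke less HDM mice it did in airway for Mgl2 to -0.0033 (all libraries), Clec10a to -0.081 (edgeR), -0.072 (DESeq2) and -0.029 (code runs) and Cd209a to 0.019 (edgeR), 0.032 (DESeq2) and 0.058 (quality weights), and in parenchyma for Clec10a to -0.012 (CPM filter) and -0.061 (without X32) and Socs1 to -0.037 (quality weights).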

Other observations

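Library codes that follow each other, 1 of airway and 1 of parenchyma in the same group, were compared over 101 such pairs, although the labels do not state that they come from the same mouse. Deviations from the group mean were positively related for Retnla (r 0.64, rho 0.59, permutation p = 1e-05 for both, adjusted p = 2.7e-05 and 2e-05 over 8 genes) and Socs1 (r 0.61, rho 0.59, p = 1e-05 for both, adjusted p = 2.7e-05 and 2e-05), with 0.62 and 0.57 without the 2 farthest pairs. The other members had r from 0.22 (Clec10a, rho 0.18, permutation p = 0.038 and 0.095) to 0.49 (Ccl17, rho 0.45). The smallest p that 100000 permutations can give is 1e-05.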
